A study of Mus musculus with 8 samples.

Results

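Metallothioneins are small cysteine-rich proteins that bind zinc and copper, and Mt1 and Mt2 are the liver forms. They are described here with 7 further genes of zinc handling: Mtf1, Slc30a1, Slc30a10, Slc39a4, Slc39a5, Slc39a10 and Slc39a14. The 9 genes were chosen by name from the table of 27110 genes, with the difference between the genotypes already known, so that difference is given here as a description. Calls of these genes are counted beside the share of all genes called, and nothing is read from them. All 9 passed the filter on low counts that left 16420 genes.

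Zinc in a cell is set by importers of the Slc39 (ZIP) family, which bring it into the cytosol, by exporters of the Slc30 (ZnT) family, which remove it, and by metallothioneins, which hold it. The transcription factor encoded by Mtf1 senses free zinc, binds metal response elements and turns on Mt1, Mt2 and Slc30a1. In liver the metallothionein genes also respond to glucocorticoids and, with the importer Slc39a14, to interleukin 6. Slc39a14 and Slc30a10 carry manganese as well, as importer and exporter.

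The 8 libraries were bulk RNA of mouse livers at week 7, with the treatment label NT and the cell type label hepatocytes and cholangiocytes. The 4 control libraries were from Fl/Fl livers, the floxed controls, and were numbered 5, 7, 9 and 10. The 4 LKO libraries, numbered 3, 4, 12 and 13, were from livers with a liver-restricted deletion of Pkd1l1, a polycystin-family gene. The promoter that drives the deletion and the strain are not given in the sources used here. Fl/Fl 10 was male and the other 7 libraries were female. No label says that the libraries came from separate animals, so each liver named below stands for its library. The contrast is that of the 4 LKO with the 3 female Fl/Fl libraries, and the male library is given beside them.

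The libraries held 71491723 to 76622375 counted reads, and Pkd1l1 itself had 0 to 2 reads in each, too few to check the genotype labels. The 10 hepatocyte markers summed to 95346 to 149641 CPM (reads scaled to a common library size), against 55.2 to 80.6 CPM for 10 cholangiocyte markers. The libraries differed in clock state: Dbp, an evening-peaking clock output gene, was below Arntl, its opposite in phase, in Fl/Fl 5 and 7 and LKO 3 and 4, and above it in the other 4 libraries. The split followed the library numbers, with 3, 4, 5 and 7 on 1 side and 9, 10, 12 and 13 on the other. Clock state therefore cannot be told apart from anything else that went with the numbering. Immediate early genes (15 genes) summed to 2142 to 4031 CPM in female Fl/Fl, 797 to 1569 CPM in LKO and 610 CPM in the male library. Junb and Jun, subunits of the AP-1 factor, were lower in LKO among them (log2 -1.88 and -2.40, adjusted p = 0.00127 and 0.0369, edgeR); Jun lost that call without any 1 library except Fl/Fl 9 and the male library, and the part of this state in the differences below was not tested.

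The coding sequences of Mt1 and Mt2 are shown because they bear on how reads were assigned. The codons TGC and TGT, which encode cysteine, are in capitals (GENCODE M21, mm10, transcripts Mt1-201 and Mt2-201, without the stop codon).
Mt1: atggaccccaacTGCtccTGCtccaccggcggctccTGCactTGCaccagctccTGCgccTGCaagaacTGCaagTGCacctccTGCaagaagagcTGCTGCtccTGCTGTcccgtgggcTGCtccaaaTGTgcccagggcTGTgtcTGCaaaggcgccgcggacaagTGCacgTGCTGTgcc
Mt2: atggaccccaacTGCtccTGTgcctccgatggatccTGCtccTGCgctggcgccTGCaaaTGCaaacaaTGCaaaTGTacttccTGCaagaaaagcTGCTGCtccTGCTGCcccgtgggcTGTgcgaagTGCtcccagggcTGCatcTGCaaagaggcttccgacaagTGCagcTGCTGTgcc
Each has 183 bases and 61 codons, of which 20, or 32.8%, are TGC or TGT, at the same positions in both. The pair was identical at 145 of 183 bases (79.2%). The longest identical stretch of the spliced transcripts was 20 bases, and no other gene's transcript shared a 50-base stretch with either.

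Upstream sequence is shown for Mt1, Mt2 and Slc30a1, the textbook targets of the Mtf1 protein. Capitals mark matches to the core of the metal response element, searched as TGCACNC and TGCGCNC on both strands. The 250 bases before each RefSeq start are given 5′ to 3′ (GRCm38.p6, the assembly of mm10), all on the plus strand: chr8:94178839-94179088 for Mt1, chr8:94172368-94172617 for Mt2 and chr1:191906531-191906780 for Slc30a1.
Mt1: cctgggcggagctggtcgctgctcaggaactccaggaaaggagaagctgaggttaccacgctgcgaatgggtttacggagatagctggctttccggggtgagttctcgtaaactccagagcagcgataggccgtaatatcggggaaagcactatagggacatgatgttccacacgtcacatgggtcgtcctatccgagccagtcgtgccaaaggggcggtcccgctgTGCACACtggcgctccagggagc
Mt2: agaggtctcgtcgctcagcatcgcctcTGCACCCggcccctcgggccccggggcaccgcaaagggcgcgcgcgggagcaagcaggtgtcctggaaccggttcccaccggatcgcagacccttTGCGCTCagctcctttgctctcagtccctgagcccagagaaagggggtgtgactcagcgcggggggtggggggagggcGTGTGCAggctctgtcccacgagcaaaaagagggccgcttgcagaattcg
Slc30a1: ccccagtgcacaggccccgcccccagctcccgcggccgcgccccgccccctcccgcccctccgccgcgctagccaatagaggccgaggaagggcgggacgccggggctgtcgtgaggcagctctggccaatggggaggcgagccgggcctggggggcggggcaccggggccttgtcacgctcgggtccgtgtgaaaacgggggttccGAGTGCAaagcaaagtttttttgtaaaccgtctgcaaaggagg
Slc30a1 had 1 further match, from base 31 after its RefSeq start. Further matches of Mt1 and Mt2 lay just after the RefSeq start, within 30 bases at chr8:94179091-94179120 for Mt1 and chr8:94172622-94172651 for Mt2. The stretch of Mt2 lies before 94172664, the gene start given for it below. Only RefSeq starts were used, and where most transcripts of Mt1 or Mt2 start was not examined. A match after the RefSeq start may thus lie before the start of other transcripts, and sites beyond the window were not counted.
Mt1: TGCACTCcgcccgaaaagTGCGCTCggctc
Mt2: GTGCGCAggcccaggggcgtgtgctggcca
Over the full window of 250 bases before to 50 bases after the start, Mt2 held 4 separate sites, Mt1 held 3, and Slc30a1 and Slc30a10 held 2 each. Of 32851 such windows of mouse genes, 25.7% held at least 1 site, 6.14% at least 2, 1.31% at least 3 and 0.295% at least 4. Overlapping matches were counted as 1 site. Mtf1 and both windows of Slc39a10 held none, and of the windows of Slc39a5 1 held a single site. Windows were matched for 7 of the 9 genes, and Slc39a4 and Slc39a14 were not among them. A match is a run of letters and says nothing of binding.

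Mt1 was higher in every LKO liver than in every Fl/Fl liver. Mt1 (ENSMUSG00000031765, chromosome 8, 94179082 to 94180327, plus strand, mm10) stood at 208, 228 and 228 CPM in the female controls Fl/Fl 5, 7 and 9, and at 289 CPM in the male library. In LKO 3, 4, 12 and 13 it stood at 507, 682, 532 and 586 CPM. The groups did not overlap, and LKO 4 was the highest. The means were 221 ± 11.7 CPM (SD, n = 3) for female Fl/Fl and 577 ± 77.6 CPM (SD, n = 4) for LKO, a log2 fold change of 1.38 ± 0.12 (SE, edgeR). Mt1 took 0.0208% to 0.0234% of the reads of the female Fl/Fl libraries and 0.0507% to 0.0659% of those of LKO. In a bulk sample a change in the number of expressing cells and a change in RNA per cell cannot be told apart.

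Mt2, the neighbour that lies upstream of Mt1 on the same strand (ENSMUSG00000031762, chromosome 8, 94172664 to 94173568), had a larger ratio between the groups at a much lower count. Its reads numbered 238, 272 and 435 in Fl/Fl 5, 7 and 9, 526 in the male library, and 1001, 1580, 1183 and 1373 in LKO 3, 4, 12 and 13. The LKO libraries were again all above the Fl/Fl libraries, with LKO 4 the highest. Among the controls, Fl/Fl 9 and the male library held more than Fl/Fl 5 and 7. In CPM the means were 4.11 ± 1.36 (SD, n = 3) in female Fl/Fl and 17.2 ± 3.66 (SD, n = 4) in LKO, a log2 fold change of 2.06 ± 0.24 (SE). Mt1 had 40.1 to 65.4 reads for each read of Mt2 in female Fl/Fl, 38.5 in the male library and 31.2 to 38.4 in LKO.

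**Figure D1:**
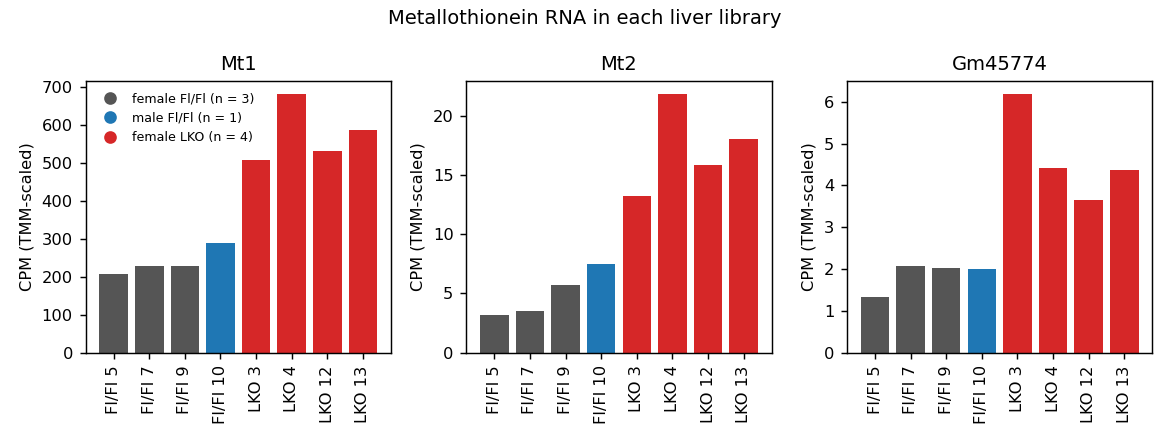
Bars give TMM-scaled CPM of Mt1, Mt2 and the antisense gene Gm45774 in each of the 8 libraries, on axes that start at 0. The 4 LKO bars lie above the 4 Fl/Fl bars in each panel, and LKO 3 is the highest for Gm45774 but the lowest of the 4 for Mt1 and Mt2.

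The count of Mt2 is uncertain as a measure of its level. Of the 588 annotated exon bases of Mt2, 432 (73.5%) lie under the single exon of Gm45774, a predicted antisense gene on the opposite strand, and 156 bases are free of it. The sources used here do not state whether strand was used or how reads over overlapping genes were counted. Gm45774 had 99, 161 and 156 reads in Fl/Fl 5, 7 and 9, 140 in the male library, and 470, 320, 273 and 332 in LKO 3, 4, 12 and 13. It was higher in LKO (log2 1.36 ± 0.24, adjusted p = 0.0245, edgeR, adjusted over all tested genes). That call was lost without Fl/Fl 5, Fl/Fl 7, LKO 4 or LKO 13 (log2 0.72 to 1.47 over all alternatives). Reads of Mt2 and Gm45774 that lie within the 432 shared bases cannot be told apart without strand. With the reads of both summed into 1 row, the log2 fold change of Mt2 was 1.88 ± 0.19 (SE). No annotated exon overlaps Mt1.

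Around the metallothionein pair the difference did not extend to each neighbour. Of 7 tested genes of the list of locus flanks, Gm45774 and Herpud1 were higher and none was lower in LKO, beside 1.02% higher and 0.396% lower among all tested genes. Herpud1, an endoplasmic reticulum stress gene, went from 525 ± 66.7 CPM (n = 3) to 838 ± 66.5 CPM (n = 4; log2 0.68 ± 0.11, adjusted p = 0.0204, edgeR). It lost that call without Fl/Fl 5, Fl/Fl 7, LKO 4 or LKO 13 (log2 0.45 to 0.76 over all alternatives). Bbs2, a ciliary BBSome subunit whose gene lies upstream of the pair, stood at 2.60 ± 0.33 CPM in LKO and 2.74 ± 0.19 CPM in female Fl/Fl (log2 -0.07 ± 0.18). Nup93, a nuclear pore subunit downstream of Mt1, stood at 5.92 ± 0.52 against 7.19 ± 0.36 CPM (log2 -0.28 ± 0.13, adjusted p = 0.312, edgeR). Mt3 and Mt4 were not analysed here.

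Mtf1, the zinc-sensing activator of both metallothionein genes, showed no such separation. Mtf1 (chromosome 4, 124802104 to 124849800) stood at 15.5, 16.7 and 16.2 CPM in control livers 5, 7 and 9, at 19.7 CPM in the male library, and at 14.5, 12.9, 16.6 and 20.3 CPM in LKO 3, 4, 12 and 13. The LKO values lay on both sides of the narrow female Fl/Fl range. LKO 4, the library with the most Mt1 and Mt2, had the least Mtf1, and LKO 13, the next highest for both, had the most. The log2 fold change of Mtf1 was -0.003 ± 0.14 (SE). These are RNA levels, and the activity of the Mtf1 protein was not measured.

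**Figure D2:**
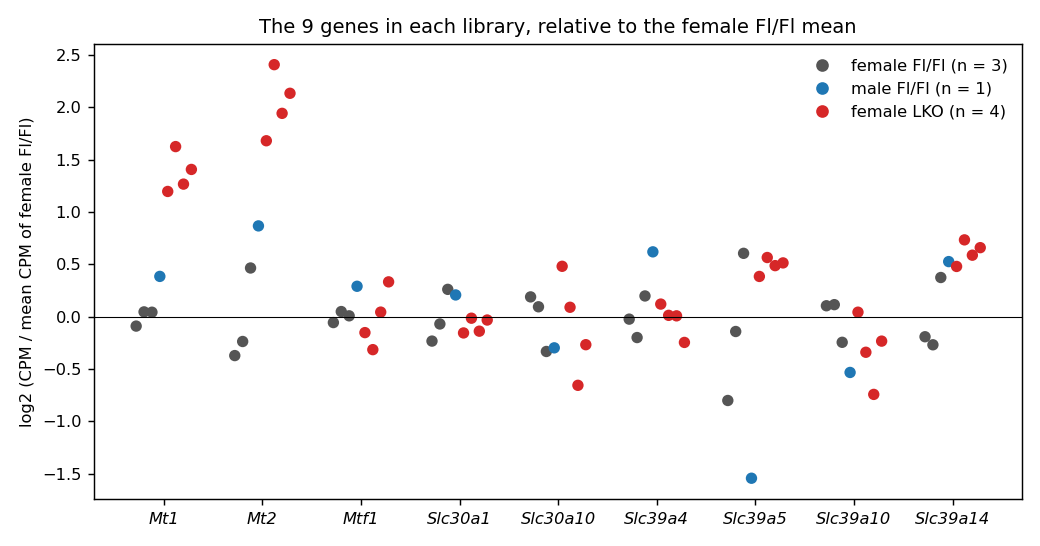
Each point is 1 library, plotted as log2 of its CPM over the mean CPM of the 3 female Fl/Fl libraries, for the 9 genes along the horizontal axis. The LKO points stand above all Fl/Fl points for Mt1 and Mt2, and overlap the Fl/Fl points for the genes from Mtf1 to Slc39a10.

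Slc30a1 encodes the zinc exporter of the plasma membrane and is, like the metallothioneins, a target of the Mtf1 protein. Slc30a1 (chromosome 1, 191906767 to 191913247) stood at 35.8, 40.1 and 50.4 CPM in control livers 5, 7 and 9, at 48.6 CPM in the male library, and at 37.8, 41.6, 38.2 and 41.1 CPM in LKO 3, 4, 12 and 13. All 4 LKO values lay inside the female Fl/Fl range. The means were 39.7 ± 1.98 CPM (SD, n = 4) in LKO and 42.1 ± 7.52 CPM (SD, n = 3) in female Fl/Fl, and the log2 fold change was -0.08 ± 0.12 (SE). Without Fl/Fl 5 and 7 together, which leaves Fl/Fl 9 as the only female control, it was -0.35, and without Fl/Fl 9 it was 0.06.

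Slc30a10, a manganese exporter of hepatocytes that also belongs to the zinc exporter family, ranged more widely among livers than between the genotype means. Slc30a10 (chromosome 1, 185454848 to 185468762) stood at 66.3, 62.1 and 46.2 CPM in control livers 5, 7 and 9, at 47.3 CPM in the male library, and at 81.2, 61.9, 36.9 and 48.3 CPM in LKO 3, 4, 12 and 13. The 4 livers with Dbp below Arntl (Fl/Fl 5 and 7, LKO 3 and 4) held 61.9 to 81.2 CPM, and the other 4 held 36.9 to 48.3 CPM. These ranges did not overlap, as was so in this direction for 2.58% of tested genes. The log2 fold change by genotype was -0.03 ± 0.27 (SE), and with the ratio of Dbp to Arntl as a covariate it was 0.02 with an SE of 0.10. The split of the livers was read from the data and is no group of the study, so it is given without a test. It also followed the library numbers, so clock state cannot be told apart from anything else that went with them. No other gene of the 9 separated the livers in this way.

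**Figure D3:**
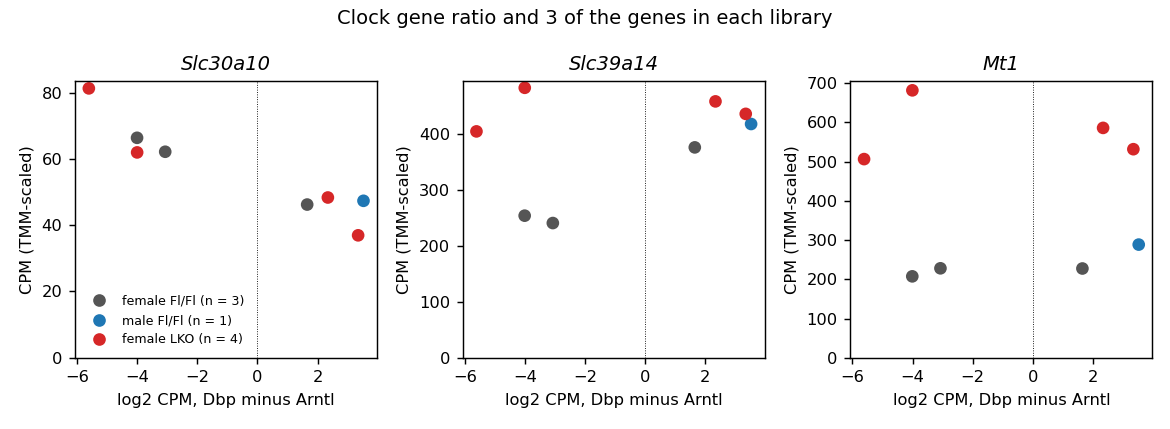
Each point is 1 library, with log2 CPM of Dbp minus that of Arntl on the horizontal axis and CPM of Slc30a10, Slc39a14 or Mt1 on the vertical axis, which starts at 0. Slc30a10 is at 61.9 to 81.2 CPM left of the dotted line and at 36.9 to 48.3 CPM right of it in both genotypes, and Mt1 is higher in LKO on both sides.

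Slc39a14 encodes ZIP14, the importer of zinc, manganese and iron that interleukin 6 induces in hepatocytes. Slc39a14 (chromosome 14, 70303469 to 70351425) stood at 254, 241 and 376 CPM in control livers 5, 7 and 9, at 418 CPM in the male library, and at 404, 482, 436 and 458 CPM in LKO 3, 4, 12 and 13. The LKO libraries were all above the female Fl/Fl libraries, and the male library lay among them. Fl/Fl 9 was nearer to LKO than to Fl/Fl 5 and 7. The means were 290 ± 74.5 CPM (SD, n = 3) and 445 ± 33.1 CPM (SD, n = 4), a log2 fold change of 0.62 ± 0.15 (SE). The value depends on which female controls are kept. Without Fl/Fl 5 and 7, which leaves Fl/Fl 9 as the only female control, it was 0.24, and without Fl/Fl 9 it was 0.84.

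Slc39a4 encodes ZIP4, the importer that takes up zinc in the intestine. Slc39a4 (chromosome 15, 76612383 to 76617384) stood at 64.8, 57.3 and 75.5 CPM in control livers 5, 7 and 9, and at 71.6, 66.4, 66.2 and 55.5 CPM in LKO 3, 4, 12 and 13. The groups overlapped (log2 -0.02 ± 0.12, SE). The male library held 101 CPM, above each female library.

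Slc39a10 encodes ZIP10, an importer that the Mtf1 protein is known to repress. Slc39a10 (chromosome 1, 46807544 to 46892852) stood at 6.03, 6.08 and 4.74 CPM in control livers 5, 7 and 9, at 3.88 CPM in the male library, and at 5.78, 4.43, 3.35 and 4.77 CPM in LKO 3, 4, 12 and 13. The groups overlapped, with a log2 fold change of -0.29 ± 0.19 (SE).

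Slc39a5 encodes ZIP5, an importer best known from pancreas and gut, and had the fewest reads of the 9 genes. Slc39a5 (chromosome 10, 128395931 to 128401229) had 59, 97 and 160 reads in Fl/Fl 5, 7 and 9, 33 reads in the male library, and 136, 147, 144 and 149 reads in LKO 3, 4, 12 and 13. The LKO values were close together and lay inside the spread of the female controls (log2 0.49 ± 0.30, SE). Without Fl/Fl 5 and 7, which leaves Fl/Fl 9 as the only female control, the log2 fold change was -0.12. Of 10 pancreatic acinar markers, 4 were analysed and summed to at most 1.40 CPM in any library. Of 10 intestinal epithelium markers, 5 were analysed and summed to 41.6 CPM (LKO 3) to 50.2 CPM (Fl/Fl 9). The largest value of a single gene among these 5 was 39.4 CPM.

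Of the 9 genes, Mt1 and Mt2 were called higher and none lower at an adjusted p of 0.05 (edgeR), beside 1.41% of all tested genes called, 1.02% higher and 0.396% lower. Mt1, Mt2 and Slc39a14 had all LKO values above all female Fl/Fl values, as did 8.85% of tested genes. The genes were chosen with this contrast known, so nothing is read from these counts. Without Fl/Fl 5 the call of Mt2 was lost (log2 1.91 ± 0.26) where 0.0238% of genes were called. It was also lost with no sex term (log2 1.80 ± 0.28; 0.00609% called) and without Fl/Fl 5 and 7 together (log2 1.59), which leaves Fl/Fl 9 as the only female control. Slc39a14 was called as well by DESeq2, with no filter beyond 1 read and without Fl/Fl 9, where 5.36%, 1.7% and 4.34% of genes were called. The log2 fold change of Mt1 ran from 1.28 to 1.43 over the 21 alternatives.

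The genotype difference of the metallothioneins was present on both sides of the clock split. Between LKO 3 and 4 and Fl/Fl 5 and 7 the mean log2 CPM differed by 1.43 for Mt1 and 2.35 for Mt2. Between LKO 12 and 13 and the 1 female control with Dbp above Arntl, Fl/Fl 9, it differed by 1.29 and 1.57. For Slc39a14 the same differences were 0.84 and 0.25, and for Slc30a10 0.14 and -0.13. With 2 against 2 and 2 against 1 libraries these are values without a test.

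The 4 LKO livers stood in the same order for several of the genes. In CPM, from high to low, LKO 4, 13, 12 and 3 was the order of Mt1, Mt2, Slc30a1, Slc39a5 and Slc39a14, which makes 5 of the 9 genes including Mt1, whose order was used. This order was found in 3.73% of tested genes. For Slc30a1 and Slc39a5 the 4 values differed little and stood in another order in unscaled reads. The order was noticed in the data.

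Levels between genes were compared per length, in the authors' FPKM (reads scaled by gene length and library size), averaged over the 8 libraries. Mt1 was the highest at 339 FPKM, with a range of 173 to 568. Slc39a14 followed at 37.8, then Slc39a4 at 23.3, Mt2 at 19.6, Slc30a10 at 10.02, Slc30a1 at 8.26, Mtf1 at 1.93, Slc39a10 at 0.832 and Slc39a5 at 0.717 FPKM. The ranges over the libraries overlapped between neighbours in this order, except between Mt1 and Slc39a14, between Slc30a1 and Mtf1, and between Mtf1 and Slc39a10. The place of Mt2 depends on the overlap with Gm45774. The length used for Mt1 was 1246 bases, while its spliced transcript Mt1-201 has 549 bases, so its FPKM is a low estimate for that transcript.

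**Figure D4:**
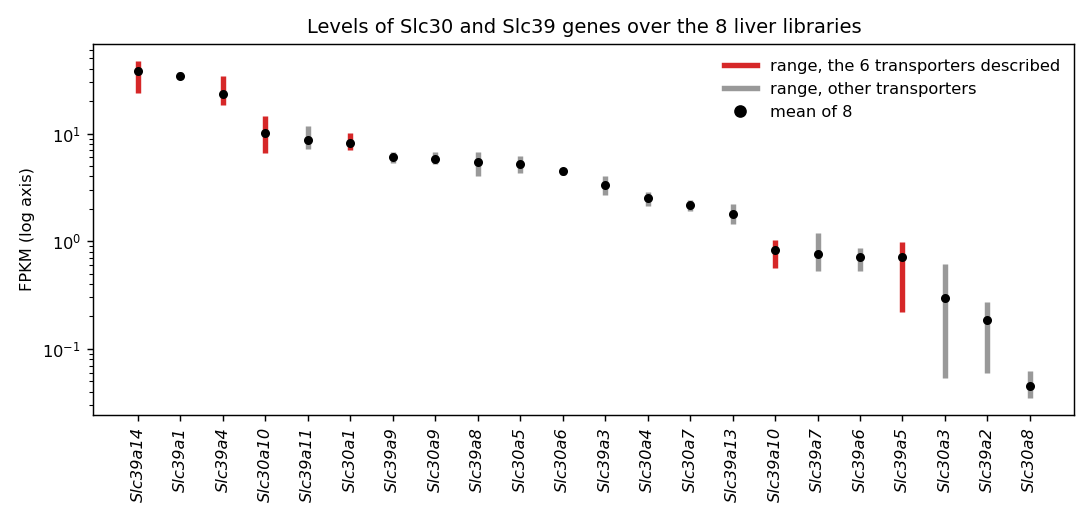
Vertical lines give the range of FPKM over the 8 libraries for 22 Slc30 and Slc39 genes with FPKM above 0 in each library, on a log axis, and points give the mean. Slc39a14, at 37.8 FPKM, and Slc39a1, at 34.4 FPKM, are the highest.

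Among all 24 Slc30 and Slc39 genes listed, Slc39a14 had the highest mean level, beside Slc39a1 (34.4 ± 1.62 FPKM, SD over 8 libraries), a zinc importer of the plasma membrane. Their ranges overlapped, at 23.6 to 47.4 and 32.1 to 37.2 FPKM. Slc39a8, which encodes ZIP8 and is the close relative of ZIP14, was at 5.46 FPKM. Slc39a7, an importer that releases zinc from the endoplasmic reticulum, was listed at 0.753 FPKM, but 80.7% of its exon bases lie under another annotated gene, Gm20427. Gm20427 lies on the same strand, so, unlike Mt2 and Gm45774, this pair could not be separated by strand.

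The other zinc transporters held no call. Of 8 other Slc30 exporters, 6 were tested and 0 passed by edgeR, DESeq2 or limma voom, with 0 at an unadjusted p under 0.05 (median log2 -0.11, beside -0.003 over all tested genes). The exporters with the smallest p were Slc30a4 (log2 -0.16 ± 0.11, adjusted p = 0.503, edgeR) and Slc30a7 (log2 -0.13 ± 0.10, adjusted p = 0.567). Of 10 other Slc39 importers, 9 were tested and 0 passed by the same tools, with 1 higher at an unadjusted p under 0.05 (median log2 0.04). That gene was Slc39a7, at 2.18 ± 0.56 CPM (n = 4) in LKO against 1.33 ± 0.02 CPM (n = 3) in female Fl/Fl (log2 0.71 ± 0.24, adjusted p = 0.174, edgeR). Slc39a3 followed at log2 0.24 ± 0.12 (adjusted p = 0.359).

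Of 8 other genes that the Mtf1 protein is known to regulate, 6 were tested and 0 passed by edgeR or limma voom (median log2 -0.12). At an unadjusted p under 0.05 (edgeR), 1 was higher, beside 1514 of 16420 tested genes. That gene, Selenow, a small selenoprotein, had 40.8, 46.8 and 38.3 CPM in control livers 5, 7 and 9, 58.6 CPM in the male library and 50.6 to 61.9 CPM in LKO (log2 0.45 ± 0.10, adjusted p = 0.0646, edgeR). DESeq2 called it higher. Cebpa, a hepatocyte transcription factor with the next smallest p, was at 355 ± 49.9 CPM in LKO against 392 ± 15.0 CPM in female Fl/Fl (log2 -0.14 ± 0.11, adjusted p = 0.596).

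**Figure D5:**
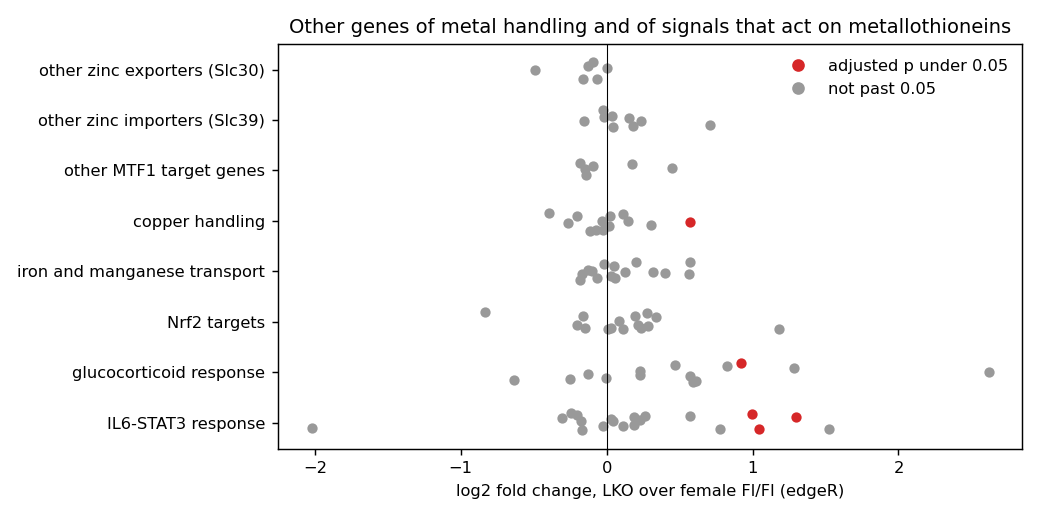
Each point is the log2 fold change of 1 tested gene, LKO over female Fl/Fl, in 8 lists of genes outside the 9, with vertical scatter for legibility. Red points are Ccs in copper handling, Sds in the glucocorticoid list, and Il6ra, Saa1 and Saa3 in the IL6 list, the 5 genes past an adjusted p of 0.05.

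Other metals were tested through 2 lists. Among 13 tested genes of copper handling, 1 passed, as higher, and 12 did not (median log2 -0.02). Ccs, the chaperone that loads copper onto superoxide dismutase, rose from 74.9 ± 9.53 CPM (n = 3) to 111 ± 12.1 CPM (n = 4; log2 0.57 ± 0.12, adjusted p = 0.0421, edgeR). The male library held 130.5 CPM, above each LKO library. The call of Ccs was lost without any of Fl/Fl 5, Fl/Fl 7, LKO 3, LKO 4, LKO 12 or LKO 13 (log2 0.33 to 0.77 over all alternatives). DESeq2 called 2 copper genes higher and 1 lower. The share called among all tested genes was 1.41% in edgeR and 5.36% in DESeq2. At an unadjusted p under 0.05 (edgeR), 2 copper genes were higher and 2 lower. Over all 16420 tested genes, 1514 were higher and 1126 lower at that p. Of 15 iron and manganese genes, 0 passed by edgeR or limma voom and 1 by DESeq2, with 2 higher at an unadjusted p under 0.05 (median log2 0.05). The ferritin light chain gene Ftl1 had the smallest p (log2 0.40 ± 0.11, adjusted p = 0.104, edgeR), followed by Slc25a28, a mitochondrial iron carrier (log2 0.32 ± 0.13, adjusted p = 0.272).

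Signals known to act on metallothionein genes were read from 3 lists. Of 15 Nrf2 targets, which answer oxidants and heavy metals, 0 passed by edgeR or limma voom and 1, Osgin1, was called lower by DESeq2, with unadjusted p under 0.05 for 2 higher and 1 lower gene (median log2 0.11). Over all 16420 tested genes, 1514 were higher and 1126 lower at that p (edgeR). Keap1, the inhibitor of Nrf2, was at log2 0.28 ± 0.09 (adjusted p = 0.151, edgeR) and Osgin1 at -0.83 ± 0.26 (adjusted p = 0.187).

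Among 14 glucocorticoid response genes, 1 passed, as higher, and 13 did not (median log2 0.52, beside -0.003 over all tested genes), and DESeq2 called 8 higher. Over all tested genes edgeR called 1.41% and DESeq2 5.36%. By edgeR, 10 of the 14 had a positive and 4 a negative log2 fold change. At an unadjusted p under 0.05, 8 were higher and 1 lower, beside 1514 higher and 1126 lower of 16420 tested genes. Sds, a serine dehydratase, stood at 170 to 173 CPM in the 3 female Fl/Fl libraries, 307 CPM in the male library and 279 to 378 CPM in LKO (log2 0.92 ± 0.11, adjusted p = 0.00881, edgeR). Without Fl/Fl 5 that call was lost (log2 0.66 to 0.98 over all alternatives). Fkbp5, a cochaperone that glucocorticoids induce, stood at 55.4 to 62.4 CPM in female Fl/Fl and 83.5 to 204 CPM in LKO, with LKO 4 the highest (log2 1.28 ± 0.28, adjusted p = 0.0887). The 14 genes summed to 9742 to 10161 CPM in female Fl/Fl, 11417 CPM in the male library and 11134 to 15776 CPM in LKO. The sum was 13312, 15776, 11134 and 12554 CPM in LKO 3, 4, 12 and 13. From high to low the sum ran LKO 4, 3, 13 and 12, and Mt1 and Mt2 ran LKO 4, 13, 12 and 3. The largest value of a single gene among the 14 was 6634 CPM, so 1 gene can hold much of such a sum. The part of glucocorticoid response genes in the metallothionein difference was not tested.

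Among 20 genes of the interleukin 6 response, 3 passed, all as higher, and 17 did not (median log2 0.15, but -0.33 with no sex term). At an unadjusted p under 0.05 (edgeR), 6 were higher and 2 lower, beside 1514 higher and 1126 lower of 16420 tested genes. DESeq2 called 6 higher and 1 lower, again beside 1.41% of all tested genes called by edgeR and 5.36% by DESeq2. Il6ra, the interleukin 6 receptor, stood at 60.3 to 65.0 CPM in female Fl/Fl, 117 CPM in the male library and 110 to 153 CPM in LKO (log2 1.04 ± 0.13, adjusted p = 0.00881, edgeR). The serum amyloids Saa1 and Saa3, acute phase proteins with close paralogs, stood at 932 and 10.01 CPM in the male library, against at most 23.2 and 3.38 CPM in any female library. By genotype they were at log2 1.29 ± 0.20 and 1.00 ± 0.21 (adjusted p = 0.0204 and 0.0455). Without Fl/Fl 5 all 3 calls were lost. Saa1 also lost its call without LKO 13, and Saa3 without any 1 library except Fl/Fl 9. With no sex term Saa1 and Saa3 turned to log2 -3.67 and -0.32. Socs3, the feedback inhibitor that interleukin 6 induces, was at 3.59 to 5.57 CPM in LKO and 8.94 to 37.1 CPM in female Fl/Fl (log2 -2.02 ± 0.54, adjusted p = 0.156). It was called lower by DESeq2, and by edgeR without Fl/Fl 9, where 4.34% of genes were called.

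Markers of other cell types were set beside the metallothioneins. Cholangiocyte markers (10 of 10 analysed) summed to 66.3 to 80.6 CPM in female Fl/Fl and 55.2 to 66.0 CPM in LKO. Spp1, the osteopontin gene, held most of this sum, at 44.9 CPM on average in female Fl/Fl and 38.2 CPM in LKO. None of 9 tested markers passed by edgeR, DESeq2 or limma voom. At an unadjusted p under 0.05 (edgeR), 2 were lower, beside 1126 of 16420 tested genes. The sums of macrophage, neutrophil, stellate and endothelial markers overlapped between the groups. No marker of these lists was at 0 in every library, but this was fixed in advance, since no gene listed by the authors had fewer than 2 reads. The part of these cells in the difference was not tested.

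The genes whose log2 CPM ran most closely with the mean of Mt1 and Mt2 over the 8 libraries were Phf11c, Smoc1, Slc25a44, Por and Cmtr1, with Pearson correlations of 0.988, 0.978, 0.975, 0.975 and 0.968 among 12335 genes with at least 1 CPM. Those that ran most closely opposite were Zfp800, Maip1, Fermt2, Prr12 and Fignl2, from -0.975 to -0.955. These correlations share the difference between the genotypes and are a description without a test. Phf11c, which has close paralogs, stood at 50.5 ± 18.6 CPM (SD, n = 4) in LKO and 7.60 ± 1.66 CPM (SD, n = 3) in female Fl/Fl. Por, the electron donor of the cytochromes P450, stood at 579 ± 87.7 against 356 ± 33.4 CPM. Maip1, a mitochondrial protein, stood at 9.50 ± 0.31 against 11.1 ± 0.21 CPM.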

How the data were processed

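RNA of 8 liver samples was sequenced from NEBNext Ultra libraries, per the labels' protocols. The submitters' processing notes give, with no roles, mm10 and the tools edgeR, DESeq2, DESeq, HTSeq, featureCounts, STAR and fastp. The authors deposited whole-number read counts per gene, a signal column of counts divided by 1 size factor per library, FPKM values from a gene length, and their own log2 fold changes and p-values, per the file headers and the values. The signal column and the authors' fold changes were not used for results.

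Counts were fitted in R 4.3.3 with edgeR 4.0.16: filterByExpr (16420 genes), TMM, and the quasi-likelihood F test (robust) with genotype and sex over all 8 libraries, two-sided, Benjamini-Hochberg adjusted, threshold 0.05. The sex term absorbs the male library. Standard errors are the log2 fold change over the square root of F. A floor of 3 reads is worth 0.0385 to 0.0428 CPM and covers counting error only. The biological coefficient of variation was 20.4%. In a simulation with 16420 genes, 91% of changes of 1 and 100% of changes of 2 on the log2 scale were recovered, and 7.28% of calls were false. The simulated libraries had no male, clock or immediate early difference, and only genes with a mean above 2 CPM were changed. These shares therefore need not hold for the real libraries.

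Since no label says that the libraries came from separate animals, p-values cover only the variation among the libraries, which may be technical. No pair of libraries was identical. The genes, the lists and the naming rule (the 9 genes, list members past the threshold or with the smallest p, and the genes with the most similar pattern) were chosen with earlier results of these data known. The split by Dbp and Arntl, the order of LKO libraries and the row summing Mt2 with Gm45774 were added after seeing the data, and Fkbp5, Socs3, Spp1, Bbs2 and Nup93 were named after their values were seen. Lists are described by counts and medians. Alternatives were other scalings, filters, tests (DESeq2 1.42.0, limma 3.58.1), FPKM with pseudocounts of 1 and 0.1, libraries left out, a clock covariate and a threshold of 0.01. Promoter windows are from RefSeq, and exons and transcripts from GENCODE M21; the mm10 gene lengths of the 9 genes equal the exon bases there.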

Additional observations from a re-analysis of the deposited data

How the results depend on the processing

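The number of genes called was 232. It was 1 with no sex term, 462 with no filter beyond 1 read, 804 with DESeq2, 140 and 144 with limma on log2(FPKM + 1) and log2(FPKM + 0.1), 26 without Fl/Fl 5 and 7 together, and 18 at an adjusted p of 0.01. Leaving out 1 library gave 4 to 727 genes: 4 without Fl/Fl 5, 37 without Fl/Fl 7, 727 without Fl/Fl 9, 47 without LKO 4, 141 without LKO 12 and 58 without LKO 13. Of the 9 genes, 2 were called. The count was 1 with no sex term, 1 without Fl/Fl 5 and 7 together, and 1 to 3 with 1 library left out: 1 without Fl/Fl 5, where Mt2 was lost, and 3 without Fl/Fl 9, where Slc39a14 was added. Slc39a14 was called in 3 of the 21 alternatives. Of the other zinc genes and Mtf1 targets, 0 were called by edgeR. The count was 1, Selenow, with no filter beyond 1 read and 1, the same gene, with DESeq2. The cause of these shifts was not tested. The fit without Fl/Fl 5 and 7 leaves Fl/Fl 9 as the only female control. Mt1, Mt2, Slc39a10 and Slc39a14 kept the sign of their log2 fold change in all 21 alternatives, and Slc30a10 in 14. Among the 21, the threshold of 0.01 used the main fit, so its signs could not differ. The row summing Mt2 with Gm45774 left the other genes nearly unchanged. No paired analysis was possible because the replicate numbers differ between the genotypes.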
